A study of Mus musculus with 8 samples.

Results

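The genes described here are 8 mouse genes of the complement system, read by symbol from the 23413 gene symbols of the count table of tumor-associated macrophages (TAMs). C1qa, C1qb and C1qc encode the chains of C1q, C3 encodes the central component, Cfb and Cfp encode the alternative pathway proteins factor B and properdin, and C3ar1 and C5ar1 encode the receptors of the anaphylatoxins C3a and C5a. All 8 of the 8 symbols were found, and all 8 passed the filter on low counts in each comparison.

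The complement system is a cascade of plasma and membrane proteins that tags particles and dying cells and recruits leukocytes. The classical pathway starts when C1q binds its target, the alternative pathway is driven by factor B and stabilized by properdin, and both lead to cleavage of C3. Macrophages are a main source of C1q in tissues and carry the receptors through which cleaved complement fragments act on them, whereas most circulating C3 is made by the liver.

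RNA was sequenced separately from the TAMs of 8 male C57BL/6 mice of 8 to 10 weeks that carried B16F10 tumors, a transplanted melanoma line, under the skin of the flank. The vehicle DMSO was given to 2 mice, and thiostrepton, a thiopeptide antibiotic, was given by the intraperitoneal route (I.P.) to 4 mice and by injection under the skin next to the tumor (S.C., called IS in the labels) to 2 mice. Dosing took place on days 6 and 12 after tumor inoculation, and on day 18 TAMs were sorted by the gate CD45+F4/80+CD11b+Gr-1−. Mice dosed by S.C. received 20 mg/kg, which the paper describes as lower than the doses it used by I.P. Which I.P. dose these mice received and the route of DMSO are not given in the sources used here.

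Between 14127506 and 17577466 reads were counted on genes per mouse, so that 3 counts, taken as the floor, were 0.169 to 0.218 CPM (counts relative to the TMM-scaled library size). This floor covers counting error only. All 7 of the 7 markers of macrophages and of the gate were detected in each group, with a summed level of 4415 to 5139 CPM in DMSO mice, 4741 to 5319 in I.P. mice and 4632 to 6170 in S.C. mice. Markers of other cells were not even between the groups. The 8 neutrophil markers found summed to 6.10 to 13.5 CPM in DMSO mice, 4.03 to 36.9 in I.P. mice and 31.9 to 261 in S.C. mice. The 8 markers of T and NK cells summed to 1.09 to 9.84, 0.486 to 13.9 and 25.3 to 35.3 CPM, the 5 of dendritic cells to 1.61 to 6.51, 2.19 to 6.71 and 9.39 to 13.9, and the 4 of B cells to 10.3 to 19.7, 8.81 to 20.7 and 25.5 to 29.8. The 5 monocyte markers ranged from 73.1 to 111, 20.3 to 317 and 116 to 198 CPM, the 6 melanoma markers from 583 to 643, 430 to 1652 and 680 to 2965, and the 4 endothelial markers from 1.72 to 3.26, 1.66 to 8.11 and 1.14 to 9.03. The 6 fibroblast markers, of which Pdgfra was at 0 in every mouse, did not exceed 1.23 CPM in sum.

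Promoters are shown for C1qb and C1qc, the pair of members whose levels were most closely correlated over the mice. Both sequences are from RefSeq (GRCm38.p6, minus strand) and run from 250 bases before the annotated start to 50 bases after it. The C1qb promoter is at chr4:136886151-136886450 and that of C1qc at chr4:136892865-136893164. Capitals mark matches, on either strand, to the PU.1 core GAGGAA, letters bound by a factor known to act in macrophages.
C1qb: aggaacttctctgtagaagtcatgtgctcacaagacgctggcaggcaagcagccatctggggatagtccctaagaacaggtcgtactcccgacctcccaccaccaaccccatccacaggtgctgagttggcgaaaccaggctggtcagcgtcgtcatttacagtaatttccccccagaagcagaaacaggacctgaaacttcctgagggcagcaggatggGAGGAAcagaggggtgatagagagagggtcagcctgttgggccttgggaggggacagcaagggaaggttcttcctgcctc
C1qc: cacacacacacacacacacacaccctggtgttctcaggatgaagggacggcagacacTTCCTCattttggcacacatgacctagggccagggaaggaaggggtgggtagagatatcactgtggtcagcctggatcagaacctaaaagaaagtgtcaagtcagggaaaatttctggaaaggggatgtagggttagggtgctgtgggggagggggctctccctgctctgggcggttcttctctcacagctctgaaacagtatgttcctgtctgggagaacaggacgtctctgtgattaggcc

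The C1qb window held 1 match, 30 bases before the RefSeq start, and the C1qc window 1 match, 193 bases before the RefSeq start of C1qc. The GENCODE gene extents given below begin at other bases, so these distances hold for the RefSeq starts only. Among 32544 distinct RefSeq promoters of the same length, 28.1% held the PU.1 core. Of the other members with a promoter sequence here, Cfp had 2 matches and C3, C3ar1 and C5ar1 had 0. These matches describe letters only, and no binding was measured.

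Per kilobase of exon, the 8 genes kept almost the same order in every mouse. C1qb stood highest with 3490 to 7529 CPM per kb, followed by C1qc with 2108 to 3995 and C1qa with 1115 to 1898, and each of these steps held in 8 of 8 mice. Cfp (316 to 671 CPM per kb) exceeded C5ar1 (228 to 506) in 7 of 8 mice, so this pair was not separated beyond the spread. C5ar1 exceeded C3ar1 (172 to 293) in 8 of 8 mice, by 1.26-fold to 2.15-fold. Cfb followed at 8.18 to 75.6 CPM per kb and C3 was lowest at 0.332 to 4.42, each step again holding in 8 of 8 mice. The chains of C1q were thus read far more often than C3. In the plot of levels per exon length, the highest level of C1qa and of C3ar1 is 1.70-fold the lowest, that of C1qc, Cfp, C1qb and C5ar1 1.89-fold to 2.22-fold, and that of Cfb and C3 9.25-fold and 13.3-fold.

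**Figure D1:**
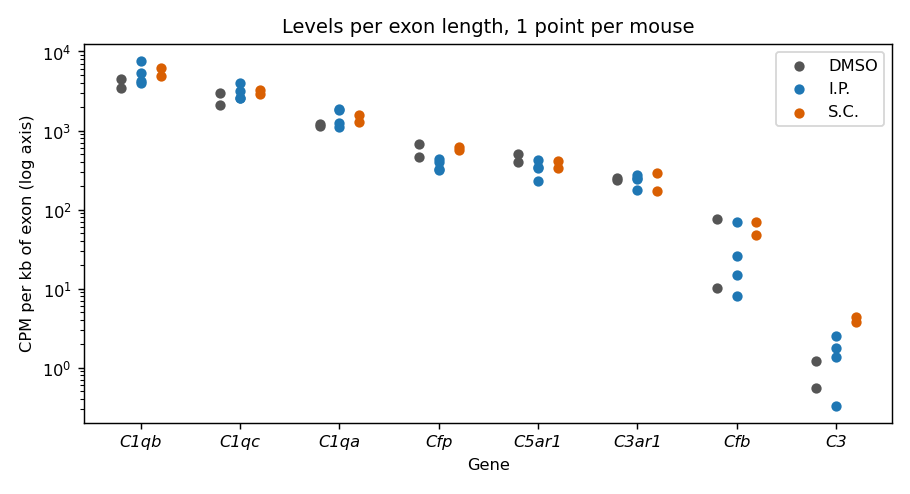
Level of each complement gene as CPM per kilobase of exon, on a log axis, with 1 point per mouse and colors for DMSO (n = 2), I.P. (n = 4) and S.C. (n = 2) mice. C1qb lies at 3490 to 7529 and C3 at 0.332 to 4.42, and the points of Cfb are spread over 9.25-fold.

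The C1q chains lie side by side on the minus strand of chromosome 4 (GRCm38, GENCODE vM21). C1qb extends from 136880129 to 136886187, C1qc from 136889804 to 136893065 and C1qa from 136895917 to 136898803, with 3616 and 2851 bases between neighbors and 18675 bases in all. Together they took up 0.809% to 1.39% of all counts. By level per length, C1qb ranked between 6 and 11 in each mouse among the 21777 symbols with an exon length, C1qc between 13 and 27 and C1qa between 34 and 48. C1qb was at 4928 and 3797 CPM in the DMSO mice, at 8192, 4552, 5734 and 4359 CPM in the I.P. mice and at 6804 and 5323 CPM in the S.C. mice. Both S.C. mice were above both DMSO mice, and I.P. mouse 1 had the highest level of the 8. C1qc was at 3551 and 2536 CPM with DMSO, at 4805, 3116, 3858 and 3121 CPM by I.P. and at 3948 and 3505 CPM by S.C., and the groups overlapped. C1qa was at 1246 and 1203 CPM with DMSO, at 1863, 1281, 1973 and 1159 CPM by I.P. and at 1653 and 1343 CPM by S.C. Here I.P. mice 1 and 3 were high, I.P. mouse 4 was below the DMSO mice, and the S.C. mice were both above them.

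The differences between groups in the C1q chains were small against the spread of the mice. In I.P. mice the log2 fold change from DMSO was 0.35 (standard error, SE, 0.28) for C1qa, 0.38 (0.31) for C1qb and 0.29 (0.28) for C1qc, each with an edgeR adjusted p = 0.980. By S.C. the values were 0.26 (0.29), 0.45 (0.32) and 0.27 (0.32), each with an edgeR adjusted p = 0.9999. Between the routes, S.C. differed from I.P. on the log2 scale by -0.07 for C1qa, 0.09 for C1qb and 0.00 for C1qc, with standard errors of 0.29, 0.31 and 0.26. In bulk samples, fewer cells of a type and less RNA per cell cannot be told apart.

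The shares of the chains kept the same order in every mouse. Per length, C1qb made up 50.8% to 56.5% of the sum of the chains, C1qc 29.5% to 34.0% and C1qa 13.5% to 18.3%. The ratio of C1qb to C1qc lay between 1.53 and 1.91 in the 8 mice, with a mean of 1.60 ± 0.0853 for DMSO (SD, n = 2), 1.67 ± 0.148 for I.P. (SD, n = 4) and 1.79 ± 0.160 for S.C. (SD, n = 2). The ratio of C1qb to C1qa varied more, from 2.78 to 4.20.

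Levels of the 8 genes were then compared mouse by mouse, in log2 CPM over the 8 mice, with exact two-sided permutation tests of all 28 pairs. C1qb and C1qc were the 1 pair that passed the Benjamini-Hochberg adjustment (Pearson's r = 0.97, exact permutation p = 0.000198, adjusted p = 0.00556, Spearman's rho = 0.95, p = 0.00114, adjusted p = 0.0319). Without the 2 mice farthest from the median of the first gene named, r was 0.93, and the same rule was used for each pair below. C1qa was correlated less closely with C1qb (r = 0.83, exact permutation p = 0.0107, adjusted p = 0.100, rho = 0.88, p = 0.00724, adjusted p = 0.101, r = 0.92 without 2 mice) and with C1qc (r = 0.80, p = 0.0107, adjusted p = 0.100, rho = 0.76, p = 0.0368, adjusted p = 0.323, r = 0.73). Properdin and the C5a receptor followed each other in part (r = 0.75, exact permutation p = 0.0236, adjusted p = 0.165, rho = 0.71, p = 0.0576, adjusted p = 0.323), and r was 0.37 without the 2 mice farthest in Cfp. Leaving out the farthest mice narrows the range of that gene, so this cannot decide whether the relation rests on them. The remaining pair with p under 0.05, C1qb and C5ar1, moved in opposite directions (r = -0.71, exact permutation p = 0.0466, adjusted p = 0.194, rho = -0.60, p = 0.132, adjusted p = 0.412, r = -0.41 without 2 mice). Within the 4 I.P. mice, r was 0.99 for C1qb and C1qc, 0.81 for C1qa and C1qb and 0.85 for C1qa and C1qc. It was 0.77 for Cfp and C5ar1 and -0.92 for C1qb and C5ar1. The mice belong to 3 groups, and no pair was tested within a group.

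C3 was the member with the largest difference, at a low level. It lies on chromosome 17 from 57203970 to 57228136. C3 was at 6.24 and 2.87 CPM in the DMSO mice, at 12.7, 1.70, 9.14 and 6.94 CPM in the I.P. mice and at 19.5 and 22.7 CPM in the S.C. mice, from 28 to 312 counts per mouse. Both S.C. mice were above the other 6 mice, while the I.P. mice lay on both sides of the DMSO mice. In S.C. mice C3 was 4.56-fold higher than with DMSO (log2 fold change 2.19, SE 0.62, edgeR adjusted p = 0.747). This met the study's criterion of an unadjusted P under 0.05 with at least a 2-fold change, and it did not pass the adjusted threshold. Without DMSO mouse 2 the criterion was no longer met (log2 fold change 1.72), and without DMSO mouse 1 the log2 fold change was 2.84. In the comparison between the routes, C3 had a log2 fold change of S.C. over I.P. of 1.47 (SE 0.66, edgeR adjusted p = 0.595). This did not meet the criterion, which was met without I.P. mouse 1 (1.83). By I.P., its difference from DMSO was 0.74 on the log2 scale (SE 0.71, edgeR adjusted p = 0.980). This was 1.40 without DMSO mouse 1, 0.29 without DMSO mouse 2 and 0.39 without I.P. mouse 1. The neutrophil, T and NK cell, dendritic cell, B cell, monocyte and melanoma markers had higher sums in both S.C. mice than in both DMSO mice, as given above, and their part in the C3 difference was not tested. The fibroblast markers were at most 0.364 CPM in sum in the S.C. mice.

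Cfb differed more between mice of one group than between groups. It lies on chromosome 17 from 34856374 to 34862518, in a stretch with overlapping annotated genes, so that its reads could in part be shared. Cfb was at 208 and 28.3 CPM in the DMSO mice, at 41.4, 22.5, 190 and 71.6 CPM in the I.P. mice and at 133 and 192 CPM in the S.C. mice. DMSO mouse 1, I.P. mouse 3 and both S.C. mice were high, the other 4 mice were low, and the highest level was 9.25-fold the lowest. The log2 fold change was -0.54 (SE 0.88) for I.P. over DMSO, 0.43 (0.86) for S.C. over DMSO and 0.99 (0.70) for S.C. over I.P., with edgeR adjusted p-values of 0.980, 0.9999 and 0.784. The sign depended on which DMSO mouse was used. Without DMSO mouse 1 the log2 fold changes from DMSO were 1.52 by I.P. and 2.49 by S.C., and the S.C. value then met the criterion. Without DMSO mouse 2 they were -1.35 and -0.39. Without I.P. mouse 3, Cfb in S.C. over I.P. mice met the criterion too, with a log2 fold change of 1.81.

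Of the 9327 genes averaging 5 CPM or more, those most like Cfb over the 8 mice were Tap1 (r = 0.98, rho = 0.98), which encodes a subunit of the transporter that loads peptides onto MHC class I, and St7 (r = 0.98, rho = 0.83). Tap1 was at 120 and 47.9 CPM with DMSO, at 62.3, 41.0, 110 and 61.4 CPM by I.P. and at 90.5 and 111 CPM by S.C., high in the same 4 mice as Cfb. These genes were picked for their likeness from all genes, so the r values are a description.

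**Figure D2:**
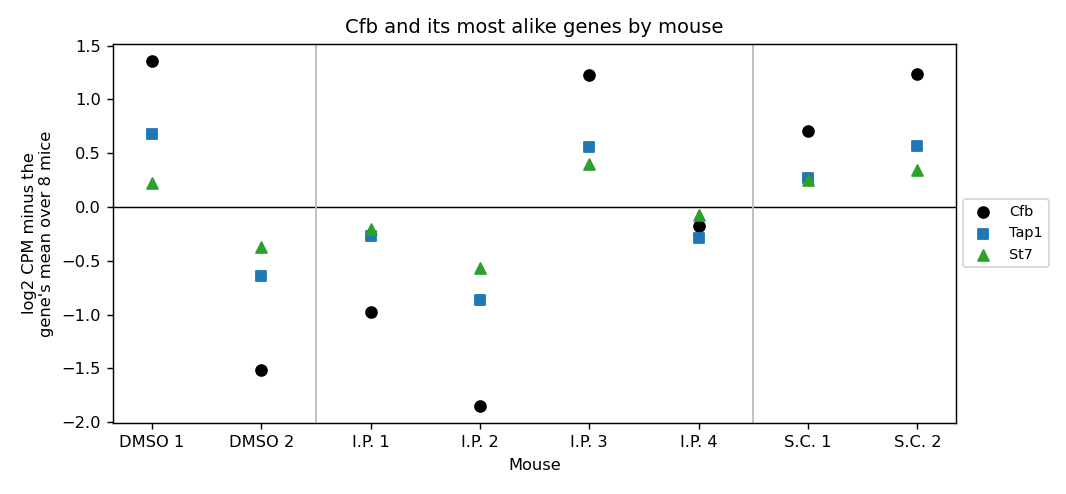
Log2 CPM of Cfb and of Tap1 and St7 (the genes most like it) in each of the 8 mice, minus the mean of that gene over the 8 mice. Cfb, Tap1 and St7 lie above their means in DMSO mouse 1, I.P. mouse 3 and both S.C. mice, and below them in the other 4 mice.

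Cfp, the gene of properdin, was lower in I.P. mice than in both other groups. It lies on chromosome X from 20925454 to 20931555. Cfp was at 1097 and 767 CPM in the DMSO mice, at 517, 714, 657 and 533 CPM in the I.P. mice and at 918 and 999 CPM in the S.C. mice. All 4 I.P. mice were below all 4 mice of the other groups. The log2 fold change of I.P. over DMSO was -0.63 (SE 0.25, edgeR adjusted p = 0.980), with an unadjusted P under 0.05 but a change of less than 2-fold. Its size depended on the DMSO mice, at -0.34 without DMSO mouse 1 and -0.86 without DMSO mouse 2. Against I.P., the S.C. mice had a log2 fold change of 0.66 (SE 0.24, edgeR adjusted p = 0.492), and against DMSO of 0.02 (SE 0.32, edgeR adjusted p = 0.9999). The genes most like Cfp were Srsf7, a splicing factor (r = 0.98, rho = 0.98), and Pdcl3 (r = 0.98, rho = 0.90).

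The anaphylatoxin receptors did not separate the groups. C5ar1, on chromosome 7 from 16246743 to 16259540, was at 1301 and 1016 CPM in the DMSO mice, at 587, 1082, 873 and 898 CPM in the I.P. mice and at 873 and 1071 CPM in the S.C. mice. I.P. mouse 1 was the lowest, and 3 of the 4 I.P. mice were below both DMSO mice. C3ar1, on chromosome 6 from 122847138 to 122856161, was at 1014 and 1087 CPM with DMSO, at 750, 1052, 1163 and 1087 CPM by I.P. and at 740 and 1259 CPM by S.C. Both the lowest and the highest C3ar1 level were in S.C. mice. The log2 fold change of C5ar1 was -0.43 (SE 0.28) for I.P. and -0.28 (0.31) for S.C. over DMSO, and 0.18 (0.29) for S.C. over I.P. That of C3ar1 was -0.06 (0.25), -0.10 (0.36) and -0.02 (0.30), and the edgeR adjusted p-values of both receptors were 0.919 or above.

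Per length, the ratio of C3ar1 to C5ar1 lay between 0.465 and 0.796 in the 8 mice. C5ar2, the gene of the other C5a receptor, was at 4.95 and 7.64 CPM in DMSO mice, at 1.40, 9.91, 7.45 and 8.17 CPM in I.P. mice and at 0.740 and 3.49 CPM in S.C. mice. It was thus far below C5ar1 in every mouse, by 151-fold to 1634-fold per length. I.P. mouse 1 and S.C. mouse 1 had the lowest levels of C3ar1 and of C5ar2. The same 2 mice had the lowest levels of Emr1, which encodes the gate marker F4/80, at 318 and 360 CPM against 584 to 1020 CPM in the other 6 mice. Its part in the receptor levels was not tested.

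**Figure D3:**
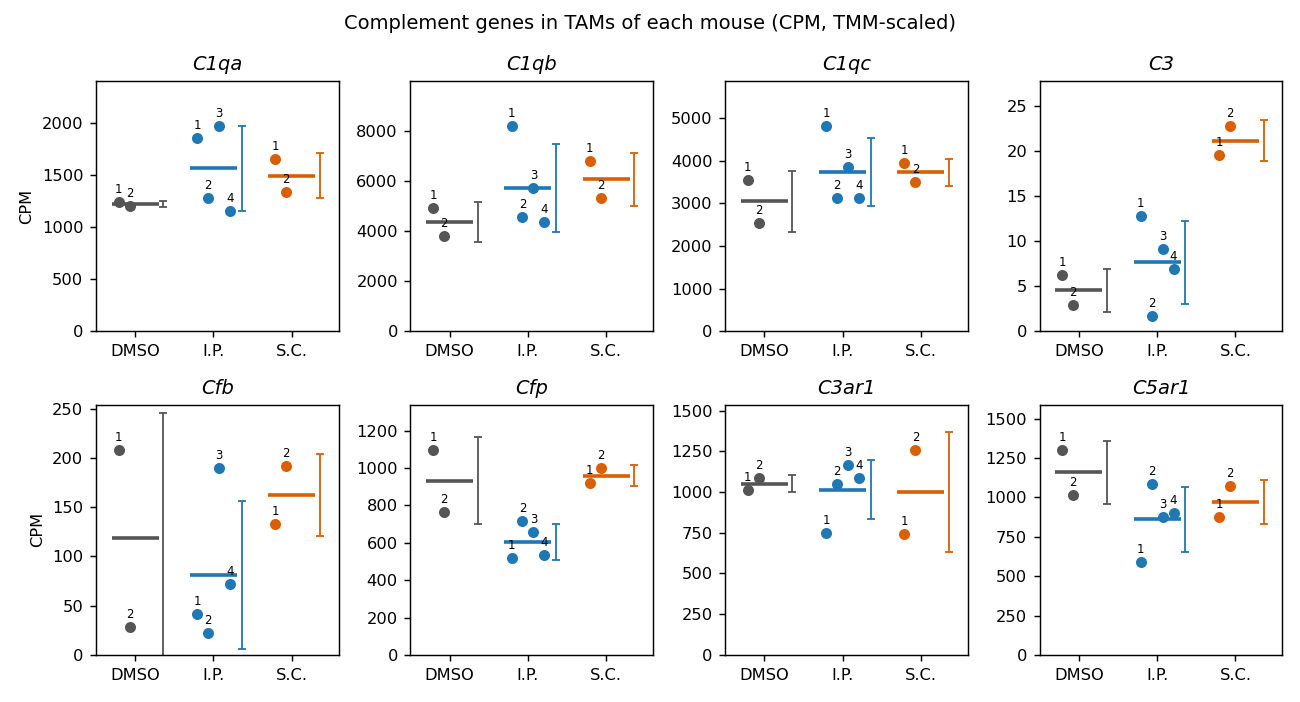
Level in CPM of each complement gene in every mouse (points, numbered by mouse), with the group mean (line) and the SD beside it (bar) for DMSO (n = 2), I.P. (n = 4) and S.C. (n = 2) mice, each axis starting at 0, where the DMSO bar of Cfb is clipped. C3 is highest in both S.C. mice at 19.5 and 22.7 CPM, Cfp is lowest in the 4 I.P. mice at 517 to 714 CPM, and the C1q chains overlap between I.P. mice and the other groups.

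The genes most like the remaining members were of varied kinds. For C1qb they were H13 (r = 0.98, rho = 1), the gene of signal peptide peptidase, and Cyba (r = 0.97, rho = 0.93), a subunit of the phagocyte NADPH oxidase, and C1qc ranked 3 among the 9327 genes. C1qb ranked 1 for C1qc, ahead of H13 and Exosc5 (both r = 0.94). For C1qa they were Gm5150 (r = 0.95) and Mgst1 (r = 0.94), a microsomal glutathione transferase, and C1qb ranked 49 and C1qc 73. C3 was most like Rbm43 and Cd69, an early activation marker of leukocytes (both r = 0.94), C3ar1 like Zfp26 (r = 0.998) and Gm4944 (r = 0.98), and C5ar1 like Capza1, an actin capping protein, and Acsl5, an acyl-CoA synthetase (both r = 0.98). Cd69 was at 10.9 and 2.93 CPM with DMSO, at 8.47, 2.31, 6.88 and 7.99 CPM by I.P. and at 16.8 and 26.1 CPM by S.C., so that it was highest in the same 2 mice as C3.

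Counted over the 8 genes, few passed a threshold in any comparison. For I.P. over DMSO, 0 of 8 met the criterion in either direction, where 1.53% of the 12174 genes tested met it as higher and 0.468% as lower. An unadjusted P under 0.05 was found for 1 of 8 (Cfp) and for 3.43% of all genes, and an adjusted p under 0.05 for 0 of 8 and 0.0% of all genes by edgeR's quasi-likelihood test. All 4 I.P. mice were above both DMSO mice for 0 of 8 genes and below them for 1 (Cfp), against 7.31% and 6.83% of all genes. The median log2 fold change of the 8 genes was 0.11, beside 0.02 over all genes.

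For S.C. over DMSO, 1 of 8 met the criterion as higher (C3) and 0 as lower, against 2.29% and 2.77% of 11680 genes. An unadjusted P under 0.05 was found for 1 of 8 and 5.41% of all genes, and an adjusted p under 0.05 for 0 of 8 and 0.0%. Both S.C. mice were above both DMSO mice for 3 of 8 genes (C1qa, C1qb and C3) and below them for 0, against 17.1% and 17.2% of all genes. The median log2 fold change was 0.27, beside 0.02 over all genes.

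For S.C. over I.P., 0 of 8 met the criterion, against 2.41% of 12206 genes as higher and 4.64% as lower, 1 of 8 (Cfp) had an unadjusted P under 0.05, against 8.59%, and 0 of 8 an adjusted p under 0.05, against 0.0%. The groups did not overlap for 2 genes that were higher by S.C. (C3 and Cfp) and 0 that were lower, against 8.05% and 10.5% of all genes. The median was 0.13, beside 0.02. By DESeq2, adjusted p-values under 0.05 were found for 19, 107 and 234 genes of all genes in the 3 comparisons. The comparisons share mice, so their counts are not independent of each other.

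**Figure D4:**
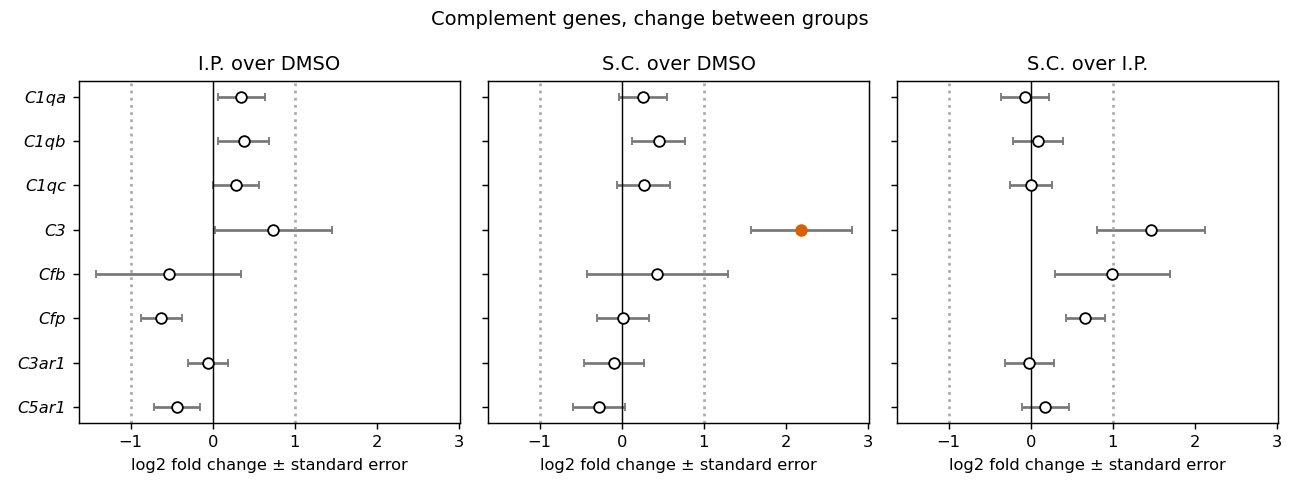
Log2 fold change of each complement gene with its standard error for I.P. over DMSO (4 and 2 mice), S.C. over DMSO (2 and 2) and S.C. over I.P. (2 and 4), with dotted lines at a 2-fold change. The filled point is C3 in S.C. over DMSO mice (2.19 ± 0.62), which met the criterion, and open points did not meet it.

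Most other complement genes were hardly read in these cells. Of 56 listed components, regulators and receptors, 54 were found, 22 of these had at most 3 counts in every mouse, 11 had 0 counts in every mouse, and 18 had a mean of at least 5 CPM. The criterion was met by 2 of 22 genes tested as higher and 0 as lower for I.P. over DMSO, by 2 and 1 of 21 for S.C. over DMSO, and by 4 and 2 of 21 for S.C. over I.P. Of all genes tested, 1.53% and 0.468%, 2.29% and 2.77%, and 2.41% and 4.64% met it. The median log2 fold changes of these genes were 0.14, 0.08 and 0.15, beside 0.02 over all genes in each comparison.

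Of the 9 other receptors tested, C5ar2 included, 1 met the criterion as higher and 0 as lower in each comparison with DMSO. This was Vsig4 for I.P. and Itgax for S.C. Between the routes, 1 met it as higher (Itgax) and 1 as lower (Lrp1). The shares of all genes were 1.53% and 0.468%, 2.29% and 2.77%, and 2.41% and 4.64% in the 3 comparisons. Itgam, Itgb2, Cd93, Calr and C1qbp met it in no comparison. Itgax encodes CD11c, a chain of complement receptor 4 that is also used to mark dendritic cells. It was at 23.2 and 13.1 CPM with DMSO, at 22.7, 20.4, 30.4 and 19.0 CPM by I.P. and at 71.9 and 125 CPM by S.C., so that both S.C. mice were above the other 6. Itgax was higher by S.C. than with DMSO (log2 fold change 2.41, SE 0.48, edgeR adjusted p = 0.747) and than by I.P. (2.09, SE 0.33, adjusted p = 0.205). The dendritic cell markers were also higher in both S.C. mice, and their part in this difference was not tested. Vsig4, a complement receptor of tissue macrophages, was at 0.746 and 4.02 CPM with DMSO, at 7.84, 10.6, 7.39 and 7.99 CPM by I.P. and at 0.00 and 4.37 CPM by S.C. All 4 I.P. mice were above both DMSO mice (log2 fold change 1.81, SE 0.63, edgeR adjusted p = 0.980), and a count of 0 in S.C. mouse 1 allows up to 0.202 CPM. Without DMSO mouse 1 the criterion was no longer met (1.07), and without DMSO mouse 2 the log2 fold change was 3.49. Lrp1, an endocytic receptor that takes part in the clearance of cells tagged by C1q, was at 161 and 329 CPM with DMSO, at 663, 276, 382 and 428 CPM by I.P. and at 155 and 271 CPM by S.C. It was lower by S.C. than by I.P. (log2 fold change -1.03, SE 0.40, edgeR adjusted p = 0.532), a call lost without I.P. mouse 1 (-0.76), I.P. mouse 4 (-1.05) or S.C. mouse 1 (-0.69).

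Regulators and soluble components that met the criterion were mostly read at low levels. Clu, the gene of clusterin, which inhibits the terminal complex, had 2 and 4 counts in the DMSO mice. It was at 1.08, 0.608, 0.395 and 1.34 CPM by I.P. and at 2.62 and 7.35 CPM by S.C. The log2 fold change of Clu was 4.68 (SE 1.197, edgeR adjusted p = 0.747) for S.C. over DMSO and 2.53 (0.86, adjusted p = 0.459) for S.C. over I.P. The first call was lost without DMSO mouse 1 (4.36) or 2 (5.09), and without S.C. mouse 2 the value was 3.71. The second was lost without I.P. mouse 2 (2.40) or 3 (2.26) or S.C. mouse 2 (1.60). Cd59a, which protects cells from the membrane attack complex, was at 11.2 and 36.6 CPM by S.C. against 5.03 to 10.5 CPM in the other 6 mice (S.C. over I.P. 1.56, SE 0.53, edgeR adjusted p = 0.460). This rests on S.C. mouse 2, without which the value was 0.46, while without S.C. mouse 1 it was 2.18. S.C. mouse 2 also had a neutrophil marker sum of 261 CPM, against at most 36.9 CPM in every other mouse, and its part in the Cd59a and Clu differences was not tested.

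Fcna, the gene of ficolin A, a recognition protein of the lectin pathway, was at 64.9 and 110 CPM with DMSO, at 126, 128, 58.1 and 108 CPM by I.P. and at 51.5 and 34.5 CPM by S.C. Both S.C. mice were below the other 6 mice. For Fcna the log2 fold change was -1.05 (SE 0.42, edgeR adjusted p = 0.911) for S.C. over DMSO and -1.29 (0.40, adjusted p = 0.398) for S.C. over I.P. The first was lost without DMSO mouse 1 (-1.40), DMSO mouse 2 (-0.63) or S.C. mouse 2 (-0.83), and the second without S.C. mouse 2 (-1.03). C8g, a chain of the terminal component C8, was at 4.98 and 3.35 CPM by S.C. against 0.746 to 1.47 CPM in the other 6 mice (S.C. over I.P. 1.88, SE 0.74, edgeR adjusted p = 0.532), a call lost without any 1 of I.P. mice 2, 3 and 4 (1.81 to 1.99) or without S.C. mouse 1 (1.56). C2, which forms the classical C3 convertase and whose gene lies next to Cfb with overlapping annotation, was at 2.65 and 3.10 CPM with DMSO, at 6.82, 6.26, 3.44 and 9.68 CPM by I.P. and at 1.48 and 14.1 CPM by S.C. The log2 fold change of I.P. over DMSO was 1.18 (SE 0.50, edgeR adjusted p = 0.980), and the call was lost without either DMSO mouse (1.07 and 1.30) or without I.P. mouse 2 (1.21) or 4 (0.93).

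Of 7 listed transcription factors known to act on complement genes, 1 met the criterion for S.C. over DMSO, and 0 did for I.P. over DMSO or between the routes, while 2.29% of all genes met it as higher and 2.77% as lower for S.C. over DMSO. Irf1, an interferon-induced factor, was at 86.2 and 59.2 CPM with DMSO, at 126, 35.3, 152 and 43.6 CPM by I.P. and at 110 and 277 CPM by S.C. Its log2 fold change for S.C. over DMSO was 1.39 (SE 0.52, edgeR adjusted p = 0.887), and the call was lost without DMSO mouse 2 (1.13) or S.C. mouse 2 (0.53), the mouse with the neutrophil marker sum of 261 CPM, whose part was not tested.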

How the data were processed

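The 8 complement genes, the lists of other complement genes, transcription factors and cell markers, and the tests were chosen with earlier results of these data known. The authors deposited whole-number counts per gene symbol without normalization, 1 column per mouse. Their methods name bowtie2 and RSEM on mm10, while the submitters' processing notes name TopHat2. Mice were grouped by the labels.

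Analysis used R 4.3.3, edgeR 4.0.16, DESeq2 1.42.0 and Python 3.11.15. For each pair of groups, fitted alone, filterByExpr required a count of 10 and a total of 15, libraries were scaled by TMM, and the two-sided quasi-likelihood test was run over all genes with Benjamini-Hochberg adjustment. The criterion, an unadjusted P under 0.05 and at least a 2-fold change, is the study's. Standard errors are the log2 fold change divided by the square root of F. Log2 CPM used a prior count of 2. Exon lengths and positions came from GENCODE vM21 on GRCm38, the assembly of mm10, for 93.0% of symbols. The main fit of each comparison, but none of the alternatives, was also run on simulated counts. At 14127506 to 17577466 counts per mouse, 3 counts were the floor.

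Named genes are the 8 members, the other complement genes and transcription factors that met the criterion in any comparison (at most 12), and, per member, the 2 genes of at least 5 CPM with the highest r. C5ar2 and Emr1 fall outside this rule and were chosen after their values were seen, and 5 receptors are named as not meeting the criterion. Alternatives were no filter, 1 CPM in 2 samples, RLE factors, library size only, the likelihood ratio test, DESeq2, 1 fit of all 3 groups, a replicate block and leaving out each mouse. Crossed pairs were added after seeing the data. Strand use in counting is not given in the sources used here. C1qa and Cfb promoters were not analysed here, and some listed genes are not reported here.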

Additional observations from a re-analysis of the deposited data

Results flagged for a closer look

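When S.C. mice were set against I.P. mice, 7 of the genes named had an unadjusted edgeR P under 0.05, and 0 of the 7 passed the adjusted threshold. They were 1 of the 8 members, 6 of the 21 other complement genes tested and 0 of the 7 transcription factors. Of all 12206 genes tested, 8.59% had such a P. Among the members this was Cfp, with a log2 fold change of 0.66 (edgeR adjusted p = 0.492), higher in 2 of 2 S.C. mice than in all I.P. mice. Among the other complement genes, the log2 fold changes were 2.09 for Itgax, 2.53 for Clu, 1.56 for Cd59a, 1.88 for C8g, -1.29 for Fcna and -1.03 for Lrp1. For each of these 6 genes, both S.C. mice lay on the same side of all 4 I.P. mice. The 6 genes were named for meeting the criterion, so this separation is no further support. Of all 21 other complement genes tested, 5 were higher and 3 lower without overlap, against 8.05% and 10.5% of all genes.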

How the results depend on the processing

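Of 697 values recomputed for 51 log2 fold changes under the alternatives, 595 kept their direction and their side of the criterion, 38 lost the call, 26 gained it and 38 changed sign. No C1q chain, C3ar1 or C5ar1 met the criterion under any alternative run. The cause of the changes below was not tested.

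C3 in S.C. over I.P. mice met the criterion without a filter, under the likelihood ratio test, DESeq2 and 1 fit of all 3 groups, so that 1 of 8 members was counted under each. Of all genes, 1173, 1101, 1017 and 1054 met it under these settings. Other complement genes for I.P. over DMSO were 1 under library size only and 0 under 1 fit of all groups, and for S.C. over DMSO 5 under the latter. Of all genes, 219, 160 and 873 met the criterion in these runs. For S.C. over DMSO, the Irf1 call was lost under library size only (1.23) and under 1 fit of all groups (1.41). The Fcna call of that comparison was lost under RLE factors (-1.03). For I.P. over DMSO, C2 lost its call under library size only (1.12), and C2 (1.19) and Vsig4 (1.82) under 1 fit of all groups. C8g in S.C. over I.P. lost its call without a filter (1.88). Signs changed for Cfp in S.C. over DMSO (-0.13, library size only), and in S.C. over I.P. for C1qb (-0.0004, library size only) and C1qc (-0.092, library size only, and -0.0011 with the 1 CPM filter).

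The deviations of same-numbered mice from their group means had correlations from -0.147 to 0.093 over 11355 genes. With 2 mice in a group the deviations are mirror images, so this cannot decide whether the numbers pair the samples. With a replicate block, the members meeting the criterion were 1 (Cfb, -1.35) for I.P. over DMSO, 1 (C3) for S.C. over DMSO and 1 (Cfb, 2.36) for S.C. over I.P., and the other complement genes 1, 3 and 2. Of all genes, 291, 429 and 389 met it under the block. Calls lost under the block were Fcna in S.C. over DMSO (-1.03) and C2 in I.P. over DMSO (1.18). In S.C. over I.P. those of Clu (2.40), Cd59a (1.46), Lrp1 (-1.08) and C8g (1.96) were lost. C3 in I.P. over DMSO was 0.16 under the block. Signs changed under it for Irf1 in I.P. over DMSO (-0.10) and, in S.C. over I.P., for C1qb (-0.041), C1qc (-0.077), C3ar1 (0.10) and C2 (-0.51). Crossed pairs, chosen after seeing the data, gave 1 member and 4 other complement genes for S.C. over DMSO, where 475 of all genes met the criterion.

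Leaving out each I.P. mouse in turn, 1 to 3 other complement genes met the criterion for I.P. over DMSO, where 185 to 361 of all genes did. For S.C. over I.P. the members then ranged from 0 to 1, where 632 to 922 of all genes met it. With each mouse of either group left out in turn, the log2 fold change for I.P. over DMSO ranged from -1.39 to 1.52 for Cfb, -0.13 to 0.068 for C3ar1, -0.0068 to 0.81 for Itgax, -0.074 to 0.69 for Fcna, -0.18 to 0.13 for Cd59a and -0.10 to 0.59 for Irf1. For S.C. over DMSO it ranged from -0.39 to 2.49 for Cfb, -0.23 to 0.29 for Cfp, -0.57 to 0.23 for C3ar1, -8.26 to 1.51 for Vsig4, -0.72 to 0.38 for Lrp1 and -1.02 to 2.26 for C2. For S.C. over I.P. it ranged from -0.23 to 0.071 for C1qa, -0.10 to 0.31 for C1qb, -0.089 to 0.15 for C1qc, -0.46 to 0.31 for C3ar1 and -2.14 to 1.11 for C2. The lowest Vsig4 value is fitted to S.C. mouse 1 alone, which had 0 counts, and is no bound. Where 1 mouse is left in a group, it is assumed to vary like the others.

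Over all genes the criterion was met by 243, 591 and 860 genes in the 3 comparisons (I.P. over DMSO, S.C. over DMSO, S.C. over I.P.). The first was 160 in 1 fit of all groups and 116 without DMSO mouse 1, the second from 113 to 3432 with a mouse left out, and the third 389 with the block and up to 2115 with a mouse left out. Genes passing the adjusted threshold were 0 in each, against 10, 179 and 265 by the likelihood ratio test, 19, 107 and 234 by DESeq2 and 0, 19 and 7 with the block. Without S.C. mouse 1 or 2 they were 1979 and 2407 for S.C. over DMSO (0 without either DMSO mouse), and 71 and 138 for S.C. over I.P. Without a filter they were 10 for S.C. over DMSO, 1 fit of all groups gave 4 and 2 for the S.C. comparisons, and leaving out I.P. mouse 1 gave 2 for S.C. over I.P. With 2 mice in a group, the p-values rest on few degrees of freedom, and the route and the dose of thiostrepton cannot be told apart.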
